A study of Gorilla gorilla with 12 samples.

Results

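The genes described here encode subunits of the respiratory chain that are read from nuclear DNA. They were chosen by name: a probe set counted if its annotation gave 1 symbol starting with NDUFA, NDUFB, NDUFC, NDUFS, NDUFV, UQCR, COX4 to COX8, ATP5F, ATP5M or ATP5P, or the symbols SDHA to SDHD. This rule found 67 probe sets of 60 genes, out of 8226 named genes on the array. Where a gene had several probe sets, the one with the highest mean stood for it. Complex I had 24 genes, complex II 3, complex III 5, complex IV 13 and complex V 15. Among those of complex I, NDUFAF1 and NDUFAF3 are assembly factors that the rule caught by their first letters and not parts of the finished enzyme.

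Complexes I to IV sit in the inner membrane of the mitochondrion and pass electrons from NADH and succinate to oxygen, and complexes I, III and IV pump protons as they do so. Complex V, the ATP synthase, lets the protons flow back and makes ATP. Apart from complex II, which is wholly nuclear, each joins nuclear subunits to at least 1 encoded by mitochondrial DNA, and only the nuclear ones are described here. Cultured fibroblasts on glucose can draw much of their ATP from glycolysis, but they build the whole chain.

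Gorilla fibroblasts, the main cells of connective tissue, had been grown in culture and their RNA read on 12 expression arrays, each holding 1 culture. Each of 11 lines came from another animal and was harvested under the same standard conditions. The lines labelled female, 1 to 6, came from donors of 19, 19, 35, 26, 30 and 2 years, and those labelled male, 1 to 5, from donors of 19, 26, 24, 18 and 3 years. Male line 2, from the donor of 26 years, was also grown a second time and harvested at 50% confluence, with part of the dish still bare. No agent or genetic change is named in the labels for any group. The line numbers are names and pair nothing.

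Intensities had been deposited on a linear scale with a floor of 100, and 40.1% to 49.2% of the 12625 probe sets were at the floor on any given array. All 9 fibroblast markers on the array, collagens among them, were above it on all 11 standard arrays. Keratins KRT5, KRT14 and KRT19, and VWF, PTPRC, ADIPOQ, FABP4 and MS4A1, markers of epithelial, endothelial, blood, fat and lymphoid cells, stood at it on all of them. Other markers in the same lists gave signal: KRT8 had 882 to 1662 on every standard array, CD68 420 to 1080 and CD3E 140 to 252, CD14 reached 1673, KRT18 362 and TEK 327. CDH1 reached 199, PECAM1 164, PLIN1 141 and the lymphoid marker CD79A 230. Of the melanocyte markers MITF had 146 to 449, while PMEL reached 433 and TYR 212. The line labelled female 3 had an intensity of 2595 for the Y-linked gene RPS4Y1, against at most 115 in the other lines labelled female and 2662 to 4363 in the male lines. Its sex label is therefore in doubt, and values without it stand beside the sex and age results. The probes were designed on human sequence, so the intensity of 1 gene is not read against that of another.

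Most of these genes gave signal. For 56 of the 60 the mean exceeded the filter on dim probe sets, set at the 40th percentile of all probe sets, and 5486 of all named genes did. The 56 were 23 genes of complex I, 3 of complex II, 5 of complex III, 13 of complex IV and 12 of complex V. The genes that did not pass were NDUFB6, at the floor on 9 of the 11 standard arrays, and 3 genes of the ATP synthase. ATP5MC2 and ATP5MF were at the floor on all 11, ATP5MC2 on both of its probe sets, and ATP5MG on 8. A value at the floor is an upper limit and says nothing about whether the gene was transcribed. Of the tested members, ATP5F1B, the catalytic beta subunit of the ATP synthase, was close to this limit too, at 100 on 5 of the 11 arrays and at most 183 on the others.

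The first question was how much these genes varied between lines from different animals under 1 condition. They varied less than genes did in general. The SD of the log2 intensity over the 11 standard lines had a median of 0.29 over the 56 genes and of 0.40 over all tested genes. It was below the median of all genes for 45 of the 56, or 80.4%, against 50% of all tested genes by definition. Brighter probe sets have smaller SDs on such arrays, so level enters this comparison. Among genes with a mean log2 intensity of 10 or more, the median SD was 0.27 for the 34 members and 0.34 for all 1049 such genes. There, 32 of 34 members (94.1%) and 66.3% of all such genes had an SD below 0.40. Among dimmer genes the medians were 0.37 and 0.42. With the floor raised to 200, the medians over the members and over all tested genes were closer, at 0.28 and 0.31. The complexes were alike in spread, with median SDs of 0.30, 0.30, 0.27, 0.27 and 0.31 from complex I to complex V. A low spread was not particular to the members. Of the gene lists read below, glycolysis had a median SD of 0.27, the mitochondrial ribosome 0.34 and assembly factors 0.34. Pyruvate dehydrogenase and the citric acid cycle had 0.37, but electron carriers and related subunits had 0.47 and proliferation 0.85.

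**Figure D1:**
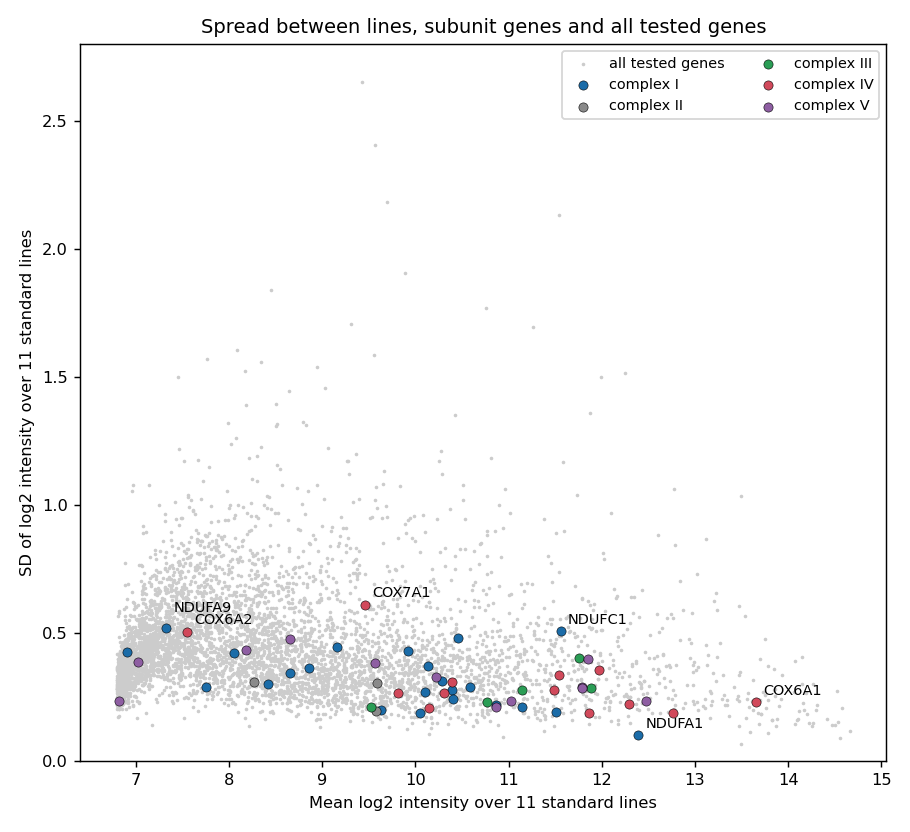
SD of the log2 intensity over the 11 standard lines (vertical axis) against the mean log2 intensity over the same lines (horizontal axis), with 1 point per tested gene, grey for all 5486 genes and coloured by complex for the 56 subunit genes. Most coloured points lie in the lower part of the grey cloud at their level, with NDUFA1 lowest at 0.10 and COX7A1 highest at 0.61.

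In complex I, the NADH dehydrogenase, the spread differed widely between genes. NDUFA1, a small accessory subunit of the membrane arm, had a lowest intensity of 4581, a median of 5273 and a highest of 6417 over the 11 lines, a range of 1.40-fold and an SD of 0.10, or 0.23 with median scaling of the arrays. NDUFC1, another small membrane subunit, had 1687, 3064 and 5244 in the same order (SD 0.51). Its high lines were female 4 with 5244, female 5 with 4872 and male 1 with 4683. Its low lines were male 4 with 1687 and the line labelled female 3 with 1876. NDUFA9, an accessory subunit that binds a nucleotide cofactor, had 100, 157 and 317 (SD 0.52), with male 4 at the floor and only male 1 and female 5 above 200. Its SD was 0.26 when the floor was raised to 200. NDUFS1, the largest core subunit, which carries iron-sulphur clusters, ran from 302 in female 4 to 861 in male 1.

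Complex II, succinate dehydrogenase, also belongs to the citric acid cycle, and 3 of its subunits were measured. SDHA, the catalytic flavoprotein, varied least, with a lowest intensity of 618, a median of 739 and a highest of 1017 (SD 0.20). The membrane anchors SDHC and SDHD had SDs of 0.30 and 0.31. SDHC ran from 544 to 1027 with a median of 823, and SDHD from 224 to 392 with a median of 314. Male 2 was lowest for SDHA and SDHD, and female 1 was lowest for SDHC with male 1 and male 2 next at 581 and 582.

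In complex III, which passes electrons from ubiquinol to cytochrome c, UQCRB varied most. This small subunit near the ubiquinone site had 2193 in male 3 and 5372 in male 2, with a median of 3618 (SD 0.40). UQCRQ, a second small subunit, had 2824 in male 2 and 5095 in male 3, the reverse order of those 2 lines, with a median of 3477 (SD 0.28). UQCRC2, a core protein on the matrix side, varied least, at 613 to 996 with a median of 732 (SD 0.21).

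Complex IV, cytochrome c oxidase, held the member with the largest SD of all, COX7A1. Within the complex COX6A2 came next, and both are isoforms known from heart and skeletal muscle. COX7A1, the muscle form of subunit VIIa, had 768, 843, 1321, 727, 510 and 532 in the lines labelled female 1 to 6, and 514, 1565, 367, 638 and 648 in males 1 to 5. Male 2 and the line labelled female 3 stood above the others, and male 3 below them, a range of 4.26-fold (SD 0.61). The common form, COX7A2, ran from 4930 to 8114 with a median of 6968 (SD 0.19), the smallest of the complex. COX6A2, the muscle form of subunit VIa, had 143, 245, 211, 125, 140 and 108 in the lines labelled female 1 to 6 and 177, 265, 170, 310 and 297 in males 1 to 5 (SD 0.50). All of these are within 4-fold of the floor, with males 4 and 5 highest, and with the floor raised to 200 the SD was 0.22. The median SD of complex IV was then 0.26, so the rank of COX6A2 rests on values near the floor. The common form, COX6A1, ran from 11429 to 14432 with a median of 12525 (SD 0.23).

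Other families of complex IV were on the array with 1 form only. COX4I1, the ubiquitous form of subunit IV, ran from 3521 in male 3 to 6567 in female 4. COX6B1 ran from 2414 in female 6 to 5671 in male 1, and COX8A from 2863 in male 3 to 4432 in male 5. COX7A2L, a relative of COX7A2 that takes part in joining complexes III and IV into supercomplexes, ran from 780 in male 4 to 1823 in female 6.

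**Figure D2:**
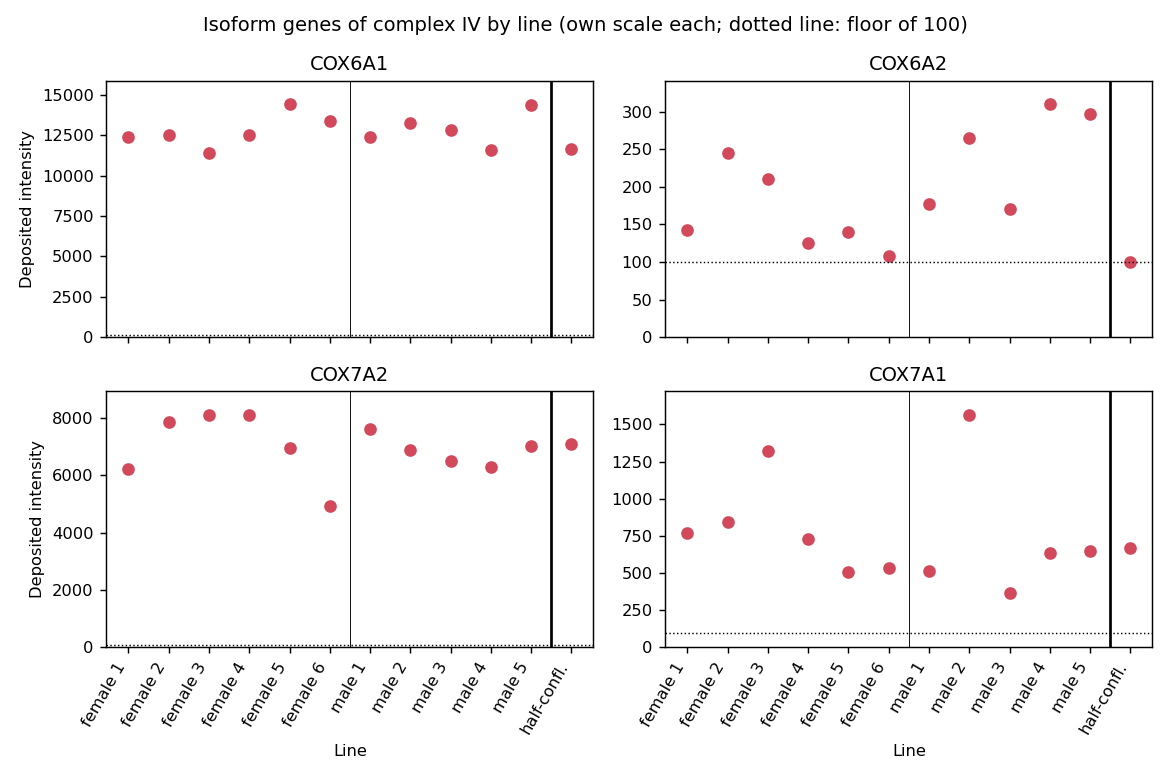
Deposited intensity (vertical axis, own scale in each panel, starting at 0) of the common forms COX6A1 and COX7A2 and the muscle forms COX6A2 and COX7A1 by culture (horizontal axis), with 1 point per array and the floor of 100 dotted. COX6A1 stays between 11429 and 14432 in the standard lines, while COX7A1 is high in male 2 and the line labelled female 3 and COX6A2 is lowest, at the floor, in the culture of male 2 at 50% confluence.

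Markers of muscle cells were read beside these muscle forms. In such bulk RNA, fewer cells of a type and less RNA per cell cannot be told apart. The 6 markers on the array had a summed intensity of 815 to 13563 in the lines labelled female and 1056 to 18943 in the male lines. Cardiac actin, ACTC1, made up 75% to 95.8% of the sum in 8 of the lines, but 52.7% in male 3, 44.5% in male 1 and 22.2% in the line labelled female 3. It had 18139 in male 5 and 181 in the line labelled female 3, with an age slope of -1.34 (unadjusted p = 0.0104, limma adjusted p = 0.85). Without that line the slope was -0.83 (unadjusted p = 0.0729, limma adjusted p = 0.993). The defining gene MYOD1 was at the floor on 10 of 11 standard arrays and at most 123, and DES was at most 138. MYOG, a further defining gene, had 150 to 550 on 10 of the 11 and the floor on male 3, and MYH2 reached 229. The line labelled female 3 had the lowest muscle sum, 815, and the second highest COX7A1, 1321. Male 3, with the next lowest sum, 1056, had the lowest COX7A1, 367. Male 5, with the highest sum, 18943, had 648, the median of the lines. No marker of the list was at the floor on every standard array, and its part in the spread of COX6A2 and COX7A1 was not tested.

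In complex V, the ATP synthase, ATP5MJ, a small proteolipid of the membrane part, had the largest spread. Its intensity was 413, 475, 493, 403, 567 and 432 in the lines labelled female and 190, 291, 571, 328 and 534 in the male lines (SD 0.48). Male 1 was lowest and male 3 highest, so the male lines spanned the female ones. ATP5PF, a subunit of the peripheral stalk, ran from 170 in male 1 to 469 in male 5 with a median of 301 (SD 0.43). ATP5MC3, which encodes the c subunit of the rotor ring, varied least at 1567 to 2388 with a median of 1833 (SD 0.21). ATP5MC1, a further gene for the same mature protein, ran from 780 to 1806. ATP5PD and ATP5PO, also of the peripheral stalk, had their highest values in male 1, at 6720 and 6585, against 2976 to 3803 and 2098 to 5011 in the other lines.

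**Figure D3:**
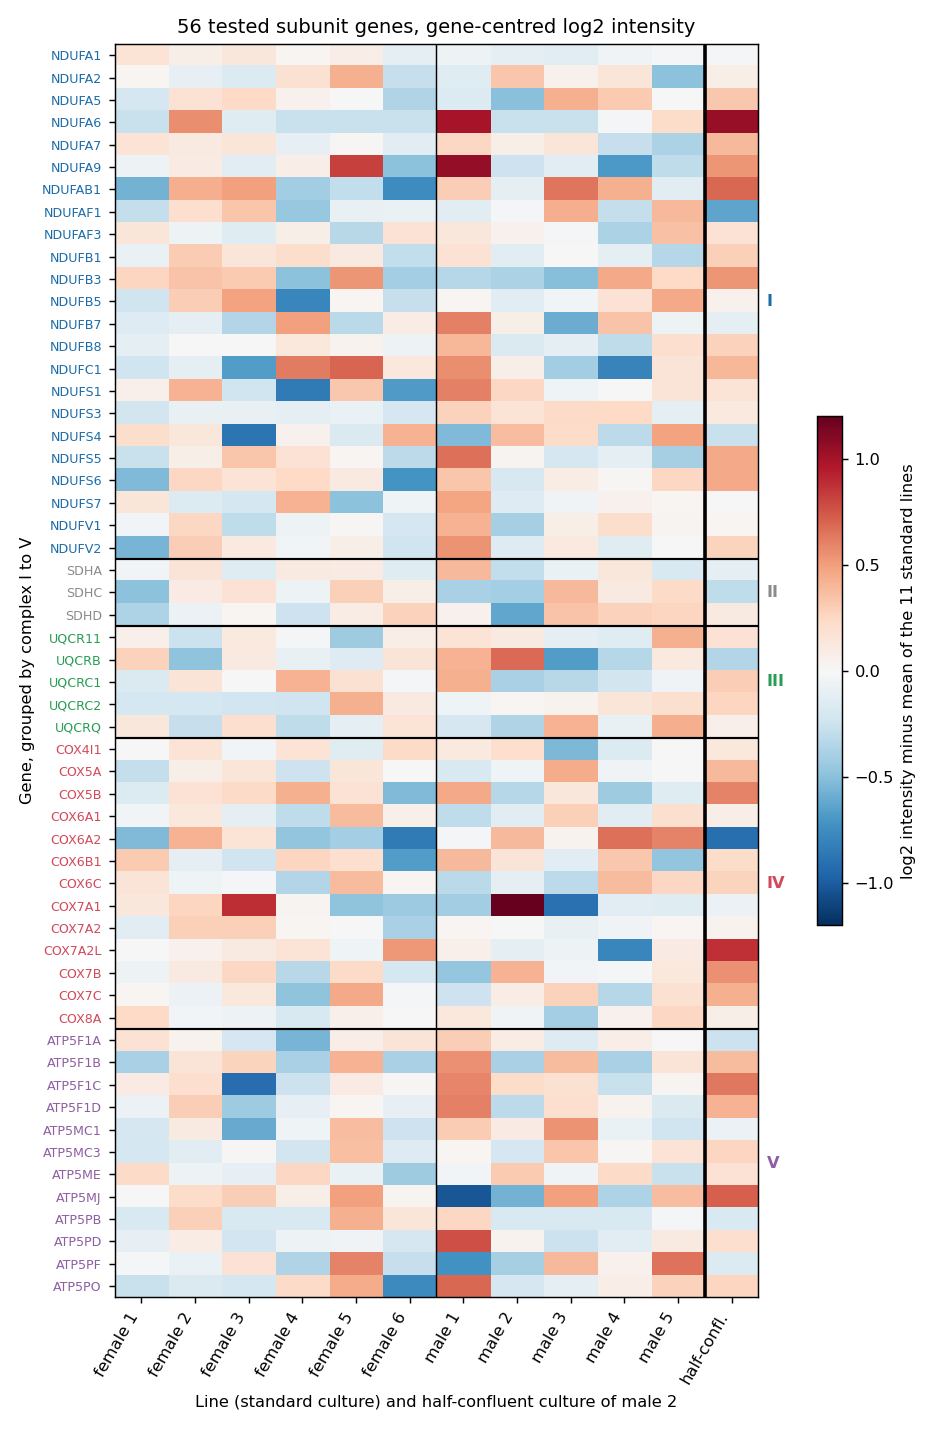
Log2 intensity of the 56 tested subunit genes (rows, grouped by complex) in the 11 standard lines and in the culture of male 2 at 50% confluence (columns), each gene as its difference from its mean over the 11 standard lines; red is higher, blue lower, and the colours end at 1.2. Male 1 has the highest value of the 11 in 22 genes, mainly of complexes I and V. The rows of COX7A1, NDUFA9 and NDUFC1 have the largest SDs over the 11 standard lines.

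Lines could be set against each other over a whole complex by the mean of its genes, each taken as the difference of its log2 intensity from its own mean over the 11 lines. For complex I this mean ran from -0.22 in female 6, the donor of 2 years, to 0.28 in male 1, a range of 1.42-fold. That of complex V ran from -0.18 in female 6 to 0.27 in female 5. Complex IV kept within -0.17 in female 6 and 0.13 in the line labelled female 3. Complex III ran from -0.21 in female 2 to 0.23 in male 5. Complex II, with only 3 genes, ran furthest, from -0.44 in male 2 to 0.22 in male 3. Over all 56 genes the mean stayed between -0.16 in female 6 and 0.16 in male 1, with an SD over the lines of 0.095.

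Male 1 had the highest value of the 11 lines in 22 of the 56 genes, or 39.3%, and in 12.4% of all tested genes. Of the 22, 12 were in complex I and 6 in complex V, with 1 each in complexes II and III and 2 in complex IV. With the arrays as deposited the count was 20, and with each array scaled to 1 median it was 19, settings chosen after seeing the data. Female 5 and male 3 followed with 8 genes each. The lowest value fell most often in female 4, female 6 and male 3, with 8 genes each. Female 4 was highest in 0 of the 56 genes, although it was highest in 9.99% of all tested genes.

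**Figure D4:**
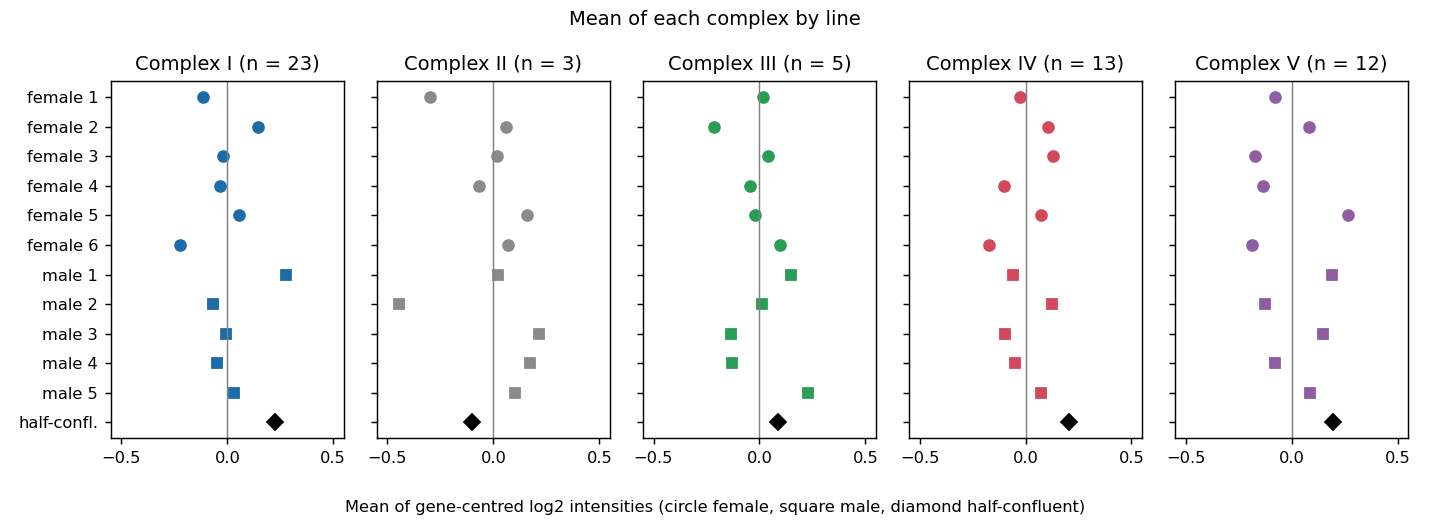
Mean over the tested genes of each complex (1 panel per complex) of the gene-centred log2 intensity (horizontal axis) by culture (vertical axis), with circles for lines labelled female, squares for male lines and a diamond for the culture of male 2 at 50% confluence. Complexes I and V order the lines in a like way, with female 6 low and male 1 and female 5 above 0, while male 2 is far lower in complex II than in the other complexes.

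Complexes did not rise and fall as 1 block across lines. The means of complexes I and V went together over the 11 lines, with Pearson's r of 0.72 and Spearman's rho of 0.76, and r was 0.62 without female 6 and male 1. The other 9 pairs of complexes had r between -0.27 and 0.47. Without the 2 lines farthest from the median of the first complex of a pair, some of these rose, IV with V from 0.12 to 0.57 and I with II from 0.26 to 0.56, so the lead of I with V rests in part on single lines. Gene by gene the relations were weak: the median r over the 11 lines was 0.11 for 410 pairs within a complex, 0.05 for 1130 pairs between complexes and 0 for all pairs of tested genes. By complex it was 0.14 in complex I, 0.18 in II, -0.08 in III, -0.02 in IV and 0.21 in V. All pairs share the same 11 arrays and their normalization, so these are descriptions with no test.

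The most similar pair joined different complexes. NDUFV1, which holds the NADH site of complex I, and ATP5F1D, the delta subunit of the central stalk of the ATP synthase, had r = 0.90. NDUFV1 and SDHA, both flavoproteins at an entry point of electrons, had r = 0.86, and so did NDUFA6 and ATP5PD. NDUFA6 was at the floor on 6 of the 11 arrays, so that last value rests on few lines. Male 1 had the highest intensity of the 11 lines for each of these genes. It had 1853 for NDUFV1, 5740 for ATP5F1D, 1017 for SDHA, 226 for NDUFA6 and 6720 for ATP5PD. The pairs were picked as extremes of all pairs and were not read without male 1. The most opposed pairs were NDUFA5 with UQCRB and NDUFB7 with COX7C, each at r = -0.85.

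The labels next imply a comparison of lines by sex. At the threshold used, no member was called for sex. limma called 0 of 7541 probe sets at an adjusted p under 0.05, which is 0% of those tested, and 397 had an unadjusted p under 0.05. Even the largest difference of any tested gene, 4.36 log2 units, was not called with the line labelled female 3 among the females. Over the whole array, 1 was called without that line, and 2 with male 2 read from its second culture. In both settings 0 members were called. The array-wide 0 thus depended on the lines used and does not show that no gene differed by sex. Among the 56 genes, 33 were higher and 23 lower in the lines labelled male, with a median log2 difference, male minus female, of 0.07. The median over all tested genes was -0.02. The medians by complex were 0.09 for I, -0.01 for II, 0.07 for III, -0.03 for IV and 0.12 for V. Without the line labelled female 3 the median of the members was 0.06, with 38 positive and 0 called, and the complexes had 0.07, 0.01, 0.10, 0.01 and 0.10. The signs of complexes II and IV thus changed with that line.

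COX6A2 was the 1 member with an unadjusted p under 0.05. In all tested genes 2.59% had such a p with a positive difference and 2.64% with a negative one. Its mean intensity was 244 ± 66.3 (SD, n = 5) in the male lines and 162 ± 53.7 (SD, n = 6) in those labelled female. The log2 difference was 0.61 with an SE of 0.24 (limma, unadjusted p = 0.024, adjusted p = 0.89), and 3 of the male lines lay above every line labelled female. The values of both groups overlapped, since males 1 and 3, at 177 and 170, lay below the 211 and 245 of the lines labelled female 3 and female 2. Without the line labelled female 3 the difference was 0.70, with a limma adjusted p of 0.943. It was 0.20 with the floor raised to 200, and 0.35 with male 2 read from its array at 50% confluence.

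The other extremes of each complex had limma adjusted p-values of 0.89 or more. In complex I, NDUFAB1, the mitochondrial acyl carrier protein, was at 0.41 (SE 0.26) and NDUFB3, a membrane arm subunit, at -0.20 (SE 0.25). NDUFAB1 had 938, 1939, 1936, 1070, 1140 and 824 in the lines labelled female and 1780, 1234, 2229, 1837 and 1232 in the male lines. High and low lines thus occurred under both labels. Without the line labelled female 3 the values were 0.54 and -0.15, and NDUFAB1 then had an unadjusted p under 0.05 (limma adjusted p = 0.943). In complex II, SDHD was at 0.11 and SDHC at -0.03, or 0.13 and 0.006 without that line. In complex III, the small subunit UQCR11 was at 0.16 and the core protein UQCRC1 at -0.20, or 0.20 and -0.22 without it. COX7A2L had the lowest difference of complex IV, -0.29 (SE 0.20), which was -0.13 without male 4 and -0.29 without the line labelled female 3. In complex V, ATP5F1C, the gamma subunit of the rotor, was at 0.28 (SE 0.23) and ATP5MJ at -0.41 (SE 0.26). The value of ATP5F1C was 0.12 without the line labelled female 3, which had 397, the lowest of the 11. That of ATP5MJ was -0.39 without that line and -0.21 without male 1.

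Genes of cell division had higher values in the lines labelled male: all 16 of a proliferation list had positive differences, with a median of 0.75, and 0 were called. All 16 were again positive without the line labelled female 3, with a median of 0.55. Its summed intensity ran from 5886 to 15505 in the lines labelled female and from 7366 to 25224 in the male lines. The part of cell division in the small differences of the subunit genes was not tested.

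Donor age was fitted in these 11 lines as a slope per 10 years, with sex in the model. No member was called. limma called 0 of 7541 probe sets (0%), with 410 at an unadjusted p under 0.05. With male 2 read from its second culture, 1 was called over the whole array and 0 of the members. In all tested genes, 2.52% had an unadjusted p under 0.05 with a positive slope and 2.83% with a negative one, and among the 56 members there were 0. The members' slopes centred on 0, with a median of 0.00 log2 units per 10 years, 30 positive and 26 negative, as did those of all tested genes with a median of 0.00. Without the line labelled female 3, the oldest donor, the median was 0.02 with 0 called, while NDUFA2 and COX6B1, named after their values were seen, had unadjusted p-values of 0.022 and 0.025 (limma adjusted p = 0.993 for each). Slopes that differed between the sexes were called for 0 probe sets (limma interaction, 282 at an unadjusted p under 0.05, 0 of them representing a member).

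NDUFS4, an accessory subunit near the NADH-oxidising end of complex I, came nearest to the threshold, with a slope of -0.26 (SE 0.12, limma unadjusted p = 0.0529, adjusted p = 0.901). The donors of 2 and 3 years had intensities of 1289 and 1309, the highest of the 11 lines. It was 782 at 18 years, 1111, 1065 and 661 at 19 years, and 1153 at 24 years. The donors of 26 years had 1025 and 1193, the donor of 30 years 862, and the line labelled female 3, of 35 years, 532, the lowest. Without that line the slope was -0.16 (limma adjusted p = 0.993). Values at 18 to 26 years ran from 661 to 1193, most of the range of the whole set. Measures of RNA quality differed between the youngest and oldest donors too, in opposite directions. In the donors of 2, 3, 30 and 35 years the 3' to 5' ratio was 0.84, 0.672, 1.175 and 1.19 for ACTB and 1.285, 1.30, 0.821 and 0.869 for GAPDH. The donors of 18 to 26 years spread widely, from 0.865 to 1.083 for ACTB and from 0.963 to 1.343 for GAPDH. The part of these ratios in the slope was not tested.

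NDUFAB1 had the highest slope of complex I, 0.23 (SE 0.13), or 0.16 without the line labelled female 3. The 3 genes of complex II had slopes between -0.11 for SDHD and 0.02 for SDHA, or -0.15 and 0.06 without that line. The 5 genes of complex III all had slopes below 0, but small ones, from -0.09 for UQCRQ to a value near 0 for UQCRC1. UQCRQ was at -0.17 without the line labelled female 3. The median slope of complex III was -0.04, but 0.10 in adult donors only, so its sign depended on the donors of 2 and 3 years. In complex IV the range was 0.21 for COX7A1 (SE 0.17) to -0.12 for COX7A2L (SE 0.10). Without the line labelled female 3 they were at 0.11 and -0.14, and COX7A1 was at 0.09 without male 2. In complex V it was 0.13 for ATP5ME, a small subunit of the membrane part, to -0.11 for ATP5F1C, or 0.18 and 0.03 without the line labelled female 3. A second probe set of COX5B, which did not represent the gene, had a slope of 0.22 with an unadjusted p of 0.0407 (limma adjusted p = 0.886), and the main one 0.17 (unadjusted p = 0.142), or 0.18 without the line labelled female 3.

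The last comparison set the culture of male 2 at 50% confluence against the standard culture of the same line. Each condition had 1 array, so no replicates stand behind a difference and none was tested. Most subunit genes read slightly higher in the culture at 50% confluence: 42 of 56 were higher and 13 lower (75% higher, against 49.7% of all tested genes). The median log2 difference was 0.24, or 1.18-fold, and 0 over all tested genes. A difference of at least 1.5-fold upward was found in 13 of the 56 genes, where 19.4% of all tested genes had one, and of at least 1.5-fold downward in 5, where 17.6% had one. At 2-fold the counts were 2 upward and 3 downward, where 7.2% and 6.6% of all tested genes passed. The shift was thus broad and small, and the share of members at least 1.5-fold higher was near that of all tested genes. Among genes with a mean log2 intensity of 10 or more, 26 of 34 members were higher with a median of 0.28, and the median of all such genes was 0.05.

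The split depends on how the arrays are scaled. With each array scaled to 1 median, all tested genes had a median of 0.46 and the members 0.80, with 51 of 56 higher and 39 at least 1.5-fold higher. With the values as deposited the medians were -0.03 and 0.30, with 42 of 56 higher. In each of these settings the members' median lay above that of all tested genes. Signal and RNA quality were unlike on these 2 arrays too, and their part in the shift was not tested. On the standard array 40.1% of probe sets stood at the floor, the smallest share of any, and on the other 49.2%, the largest. The 3' to 5' ratio was 1.30 and 0.99 for GAPDH in the same order, and 0.865 and 0.857, nearly level, for ACTB.

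By complex, the median differences were 0.33 for I, 0.18 for II, 0.24 for III, 0.13 for IV and 0.33 for V. The culture at 50% confluence lay above the range of the 11 standard lines in 9 genes, where 7.05% of all tested genes did, and below it in 2, where 4.92% did. In complex I, 6 of 23 genes were at least 1.5-fold higher, where 19.4% of all tested genes were. NDUFA6, an accessory subunit of the matrix arm, read 100, the floor, under standard conditions and 226 at 50% confluence, a difference of at least 2.26-fold, but male 1 under standard conditions had 226 as well. With the floor raised to 200 its log2 difference went from 1.31 to 0.31. NDUFB3 had 227 and 365 (1.88-fold), NDUFA5 174 and 248 (1.77-fold), and NDUFAB1 1234 and 2326 (1.75-fold). The value of NDUFAB1 lay above all 11 standard lines, whose highest was 2229. NDUFS4 was lower, at 1193 and 840 (1.55-fold), but its log2 difference of -0.64 was -0.01 with median scaling. The assembly factor NDUFAF1 was lower too, at 359 and 200 (1.53-fold), although its second, dimmer probe set was higher by 0.54 log2 units.

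In complex II the membrane anchor SDHD was higher, at 224 and 312 (1.67-fold), and the standard culture was the lowest of the 11 lines. SDHC was nearly level at 0.11 and SDHA at 0.18. In complex III the core protein UQCRC1 had 1694 and 2856 (1.61-fold), and again the standard culture of male 2 was the lowest of the 11 lines. UQCRB had 5372 and 2795, 2.04-fold lower, going from the highest standard value to one inside the range of the other lines. Its log2 difference was -1.03, or -0.45 with median scaling.

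Complex IV held large differences in both directions. COX7A2L had 1181 and 2548 (1.99-fold), above all 11 standard lines, whose highest was 1823. COX5B, a subunit on the matrix side that binds zinc, had 2346 and 4700 (1.91-fold), also above the range, while its second probe set gave 0.26 log2 units. Both muscle isoforms were lower at 50% confluence. COX7A1 had 1565 and 671, 2.40-fold lower, and the value at 50% confluence was near the median of 648 of the standard lines. COX6A2 had 265 and the floor of 100, at least 2.65-fold lower by the deposited values, and below every standard line. With the floor raised to 200 its log2 difference was -0.30 in place of -1.30. The common forms COX6A1 and COX7A2 differed by 0.22 and 0.03, and COX4I1 by -0.07. With the arrays as deposited COX6A1 was at -0.19, and with median scaling COX4I1 was at 0.51. The muscle markers had a summed intensity of 8220 in the standard culture and 5305 at 50% confluence, and their part in the lower values of COX7A1 and COX6A2 was not tested.

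In complex V, ATP5MJ had 291 and 667 (2.45-fold), above all 11 standard lines. ATP5F1B was at the floor in the standard culture and at 148 in the other, at least 1.48-fold by the deposited values. ATP5F1D had 2749 and 4880 (1.66-fold), while its second probe set was level at -0.02. ATP5F1C, at 854 and 1220, exceeded the highest standard value of 1170. ATP5F1A, the alpha subunit of the catalytic head, was lowest of the complex at -0.36, and 0.20 with median scaling. The c subunit genes ATP5MC1 and ATP5MC3 differed by -0.17 and 0.46.

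**Figure D5:**
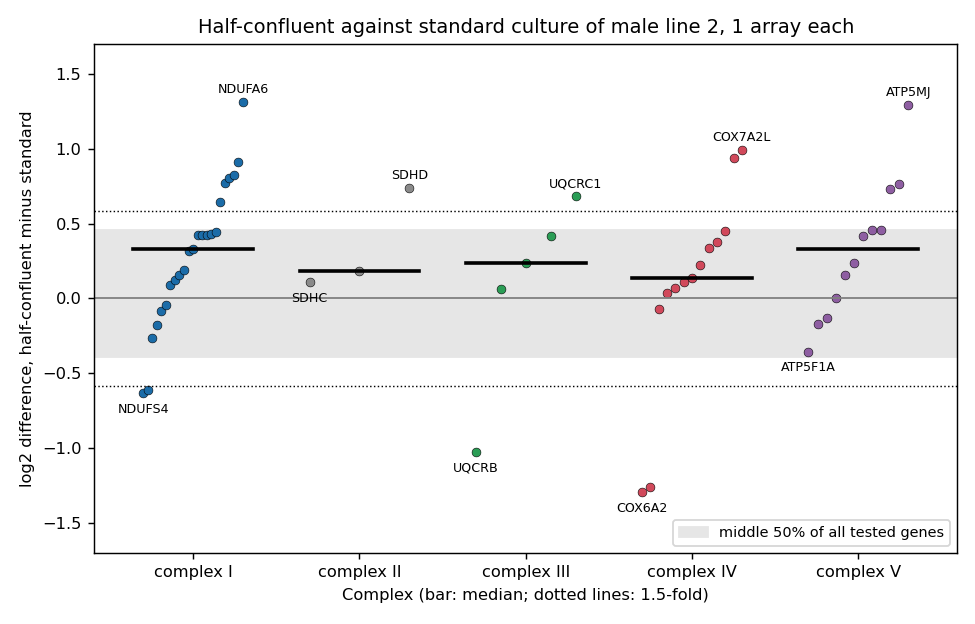
Log2 difference between the culture of male 2 at 50% confluence and its standard culture (vertical axis, quantile-normalized, 1 array each) for the 56 tested genes, 1 point per gene, by complex (horizontal axis). Black bars are medians, dotted lines mark 1.5-fold, the grey band holds the middle 50% of all tested genes, and the extremes of each complex are named; most points lie above 0, with COX6A2, COX7A1 and UQCRB far below.

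Genes that work beside the chain were read from lists made for the purpose, as counts with no test of a list, and 0 of their genes were called for sex or age. All 6 electron carriers and related subunits outside the naming rule were higher at 50% confluence, where 49.7% of all tested genes were. Their median was 0.74, and 4 were higher by at least 1.5-fold, where 19.4% of all tested genes were. Of the 6, 0 lay above the range of the 11 standard lines. Among them were ETFA, a flavoprotein that feeds electrons from fat oxidation (2.45-fold), and CYC1, the cytochrome c1 of complex III (1.73-fold). All 6 carriers and pores were higher too, with a median of 0.58, among them the ADP and ATP exchanger SLC25A4 (1.75-fold). For ETFA and SLC25A4 the standard culture of male 2, at 234 and 380, was the lowest of the 11 lines. At 50% confluence they had 507 and 626, inside the range of those lines. Medians were 0.30 over 11 genes of pyruvate dehydrogenase and the citric acid cycle, 0.27 over 14 of the mitochondrial ribosome, 0.37 over 10 of protein import, and 0.09 over 9 assembly factors. Glycolysis, the route to ATP outside the mitochondrion, had 0.52 over 16 genes, 11 higher and 5 lower. The proliferation list had 1.06, all 16 higher, so genes of cell division differed far more between these cultures than subunit genes, and their part in the shift was not tested.

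An unadjusted p under 0.05 for sex was found in 2 of the 6 electron carriers and related subunits and in 7 of the 16 proliferation genes, where 2.59% of all tested genes had one with a positive and 2.64% with a negative difference. Without the line labelled female 3 these were 2 of 6 and 4 of 16. CYC1 was higher in the lines labelled male by 0.60 (unadjusted p = 0.0225, limma adjusted p = 0.89), and DMAC2L, a factor tied to the ATP synthase was at -0.53 (unadjusted p = 0.028, limma adjusted p = 0.89). Both stayed near this without the line labelled female 3, at 0.57 and -0.57. The lists of regulators, mitochondrial ribosome and glycolysis had 1 such gene each. SLC25A4 had a slope with age of -0.30 (unadjusted p = 0.0171, limma adjusted p = 0.85), with its highest intensity, 958, in the donor of 2 years, and -0.26 without the line labelled female 3. Of the regulators of mitochondrial gene expression only 6 of 12 passed the filter. PPRC1, a coactivator of this programme, was at -0.60 (unadjusted p = 0.0102, limma adjusted p = 0.89), or -0.57 without that line, with intensities of 100 to 224 that lie near the floor. TFAM, which packs and transcribes mitochondrial DNA, stood at the floor on all 11 standard arrays.

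Several probe sets measured 7 of the genes, and they did not always give the same answer. Both probe sets of COX5B followed each other over the 11 lines with r = 0.73, those of NDUFB7 with 0.54 and those of ATP5F1D with 0.46. For ATP5ME and NDUFAF1, r was 0.28 for each pair. The second probe set of NDUFV2 and both of ATP5MC2 were at the floor on all 11 arrays and gave no relation. For NDUFB7 the difference at 50% confluence was -0.18 on one and 0.34 on the other, and for sex 0.13 and -0.22, so no direction can be read for it.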

How the data were processed

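Per the labels, RNA of 12 fibroblast cultures was measured on 1 array each. The authors deposited intensity values on a linear scale, whole numbers with a floor of 100 found in the values themselves, with summarising software and scaling not given in the sources used here. Gene symbols came from the platform annotation given with the data (10961 probe sets with 1 symbol), and 3 probe sets with several symbols, a member among them, were left out. All 60 members were found in a gorilla gene table, used for names only. Promoter and protein sequences were not used here.

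Intensities were taken to log2 and quantile normalized over 12 arrays. Probe sets with a mean above the 40th percentile over the 11 standard arrays were tested (7541), without the 67 control probe sets. The linear models of limma 3.58.1 (R 4.3.3, lmFit followed by eBayes) held sex, or age per 10 years plus sex, or their interaction. P-values were adjusted by Benjamini-Hochberg over all tested probe sets, with a threshold of 0.05. The culture at 50% confluence was compared without a p-value. Folds are from normalized values and intensities are as deposited, so their ratio differs somewhat. P-values here measure how lines of different animals spread, and the small number of arrays limits precision. No pair of arrays held identical values. The fits were tested on simulated arrays.

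Genes named were, per complex, the 2 with the largest and the 1 with the smallest SD, the extremes for sex, age and confluence, any with an unadjusted p under 0.05, the isoform families, and genes with several probe sets. Other genes were named after their values were seen. Members and lists were chosen with earlier results of these data known. Alternatives were the values as deposited, median scaling, no filter or one at the 60th percentile, a floor of 200, the mean of a gene's probe sets, leaving out each line (for the lists the line labelled female 3, chosen after seeing the data), the array at 50% confluence for male 2, array weights, adult donors (10 years or older), log2 of age and a 2-fold threshold.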

Additional observations from a re-analysis of the deposited data

Results flagged for a closer look

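Within each sex, a line far from the others of its label was looked for in 72 groups of values, and 2 were found, where chance gives about 5% of groups. For COX7A2L, male 4 had a log2 intensity of 9.61 with the nearest male line at 10.28, and a deposited intensity of 780. For NDUFA6, female 2 had a log2 intensity of 7.48 with the nearest line labelled female at 6.77, and a deposited intensity of 175, in a group where 4 of the other lines labelled female stood at the floor of 100.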

How the results depend on the processing

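Over the alternatives run, the number of members called for sex and for age was 0 in each, and every median sex difference stayed above 0. Leaving out single lines, the median sex difference ran from 0.02 (without female 6) to 0.07 (without male 2), the median age slope from -0.05 (without female 6) to 0.05 (without male 5), and the median SD from 0.28 to 0.30. For the culture at 50% confluence, the number at least 1.5-fold higher was 8 as deposited, 39 with median scaling and 2 at a 2-fold threshold, and the number at least 1.5-fold lower was 2 with median scaling and 3 at a 2-fold threshold. The median difference was 0.80 with median scaling. In adult donors only, the age slopes of UQCRQ and COX7A2L were 0.11 each and that of ATP5ME -0.078, each with the other sign. Leaving out single lines again, the sex difference of SDHC went from -0.13 to 0.073, and the age slopes of SDHA from -0.029 to 0.058 and of ATP5F1C from -0.18 to 0.026. The cause was not tested for any of these. The median slope on log2 of age has another unit and was not compared. Values at the floor are upper limits, which bounds what can be said of NDUFA6, ATP5F1B, ATP5PB and COX6A2. No paired analysis was possible because the line numbers follow the order of the records and pair no animals.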
